A study of Homo sapiens with 8 samples.

Results

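Genes of the mitotic spindle and kinetochore, the machinery that divides chromosomes, were followed in RNA-Seq libraries of a medulloblastoma cell line with and without an inhibitor of the MYC oncoprotein. They encode mitotic kinases, checkpoint proteins, kinesins, centromere and kinetochore proteins, spindle factors and a few transcription and chromosome factors of mitosis. The set was chosen by name, as 50 listed symbols, each matched by Ensembl identifier to 1 of the 60668 gene rows of the files. All 50 passed the expression filter (a CPM, the count scaled to the total of its library, above 1 in at least 4 of the 8 libraries), which kept 15222 genes.

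The cells are D283 Med, an established human medulloblastoma line, carrying a lentiviral, doxycycline-inducible OMOMYC transgene (D283-OMO). OMOMYC is a dominant-negative mutant of MYC that competes for its partner MAX. The group OMO holds 4 replicates labelled untreated, with no MYC inhibitor, and the group OMO+DOX holds 4 replicates given doxycycline (DOX, 0.25 µg/mL) for 72 h to induce OMOMYC. Cells of both groups carry the transgene and had been selected with hygromycin, and whether they are 1 clone is not given in the sources used here. Parental cells given DOX were not analysed here, so DOX and OMOMYC cannot be told apart.

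In mitosis, microtubules of the spindle attach to kinetochores, protein assemblies built on centromeric chromatin. The spindle assembly checkpoint holds the cell before anaphase until the attachments are made, after which separase cuts the cohesin that joins sister chromatids. Most genes of this machinery are transcribed late in the cell cycle and are low in resting cells, and several of them serve as proliferation markers in medulloblastoma.

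Total expected counts ranged from 46592947 to 54020506 in OMO libraries and from 38390696 to 49249167 in OMO+DOX libraries. The lowest count of any of the 50 genes in any library was 68. The 8 listed markers of group 3 medulloblastoma passed the filter, with a summed level of 3438 to 3511 CPM in OMO and 1779 to 1920 CPM in OMO+DOX libraries. The sum is held up by MYC, with means of 939 CPM in OMO and 1123 CPM in OMO+DOX libraries. EYS was also higher (14.3 and 16.7 CPM). The other markers of this list were lower, with means of 1049 and 510 CPM for OTX2 and 610 and 103 CPM for NPR3. Means were 473 and 58.7 CPM for IMPG2, 239 and 17.2 CPM for PALMD, 126 and 20.96 CPM for CRX and 28.7 and 2.45 CPM for NRL. Of the neuronal list 5 of 7 genes passed (75.3 to 80.005 against 91.1 to 95.1 CPM summed over the list, with means of 0.943 and 21.4 CPM for ELAVL3, 1.95 and 14.7 CPM for MAP2, 16.7 and 4.31 CPM for DCX and 55.4 and 48.99 CPM for SYP) and of the fibroblast list 2 of 6 (23.6 to 24.6 against 22.5 to 27.1 CPM). Immune markers summed to 0.590 to 0.890 CPM in OMO and 2.60 to 3.14 CPM in OMO+DOX libraries with 1 of 6 passing, and endothelial markers to 3.07 to 4.08 and 5.46 to 6.18 CPM with 3 of 5 passing. CD3E, PECAM1, TEK and ELAVL4 had at most 3 counts in every library. Mitochondrial genes took 4.73% to 5.13% of the counts in OMO and 5.70% to 5.95% in OMO+DOX libraries. The part that these differences in markers and mitochondrial share have in the results was not tested. MYC itself had a log2 fold change of 0.26 (standard error 0.06, edgeR adjusted p = 0.00237), a value to which transgene reads may add, since counts per gene do not separate them.

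All 50 genes were lower in OMO+DOX than in OMO cells (edgeR's quasi-likelihood test, Benjamini-Hochberg adjusted p from 4.70e-11 to 0.00011), where 38.1% of all genes tested were lower. None was higher by the same test, at an unadjusted p under 0.05, or by DESeq2, against 38.5% of all genes tested. In each of the 50 genes, every OMO+DOX library lay below every OMO library, a pattern seen in 35.4% of all genes tested. The median log2 fold change of the 50 was -1.52, that is 2.86-fold lower, against 0.01 for all genes tested. A fall of more than 1 on the log2 scale was seen in 46 of the 50, compared with 9.81% of all genes tested. AURKB, CENPM, SPC25, KIF20A and TPX2 were the 5 genes past the thresholds of the study's methods (FDR below 0.001 and log2 fold change below -2), which 2.75% of all genes tested passed. The 50 genes together made up 5474 to 6162 CPM of an OMO library and 1986 to 2295 CPM of an OMO+DOX library.

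The size of the change varied among the 50 genes, from 1.42-fold lower for CDC20 to 6.002-fold lower for AURKB, with standard errors of 0.04 to 0.14 on the log2 scale. The fold was above 3 for 22 genes and below 2 for 4 (CDC20, BUB3, PLK4 and CENPF). For a fold above 3 the share of all genes tested is not given. It was 9.81% for a log2 fold change below -1 (adjusted p below 0.05) and 2.75% for one below -2 (FDR below 0.001). Of all log2 fold changes tested, 46 of the 50 fell in the lowest 10%, and the highest, that of CDC20, stood at percentile 21.8. Counts come from bulk cultures, in which fewer dividing cells and less RNA per dividing cell cannot be told apart. With scaling by library size only, the median over all genes moved from 0.01 to 0.14 and that of the 50 genes to -1.39, and all 50 were still called lower. Over all genes tested that scaling turned 5793 lower and 5868 higher calls into 4715 lower and 7157 higher.

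**Figure D1:**
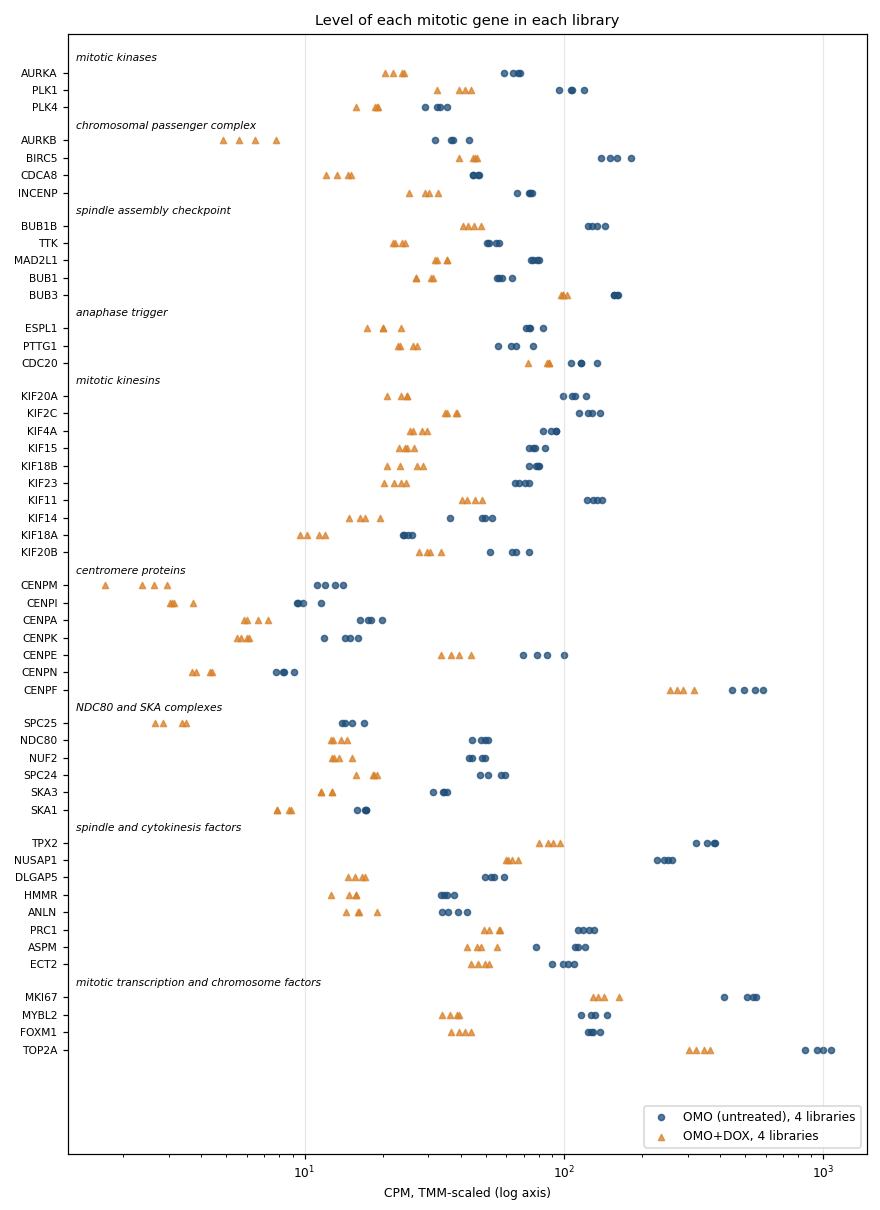
Level of each of the 50 genes in each library, in TMM-scaled CPM on a log axis, with OMO libraries as circles and OMO+DOX libraries as triangles, grouped by role. In each row the 4 triangles lie to the left of the 4 circles.

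**Figure D2:**
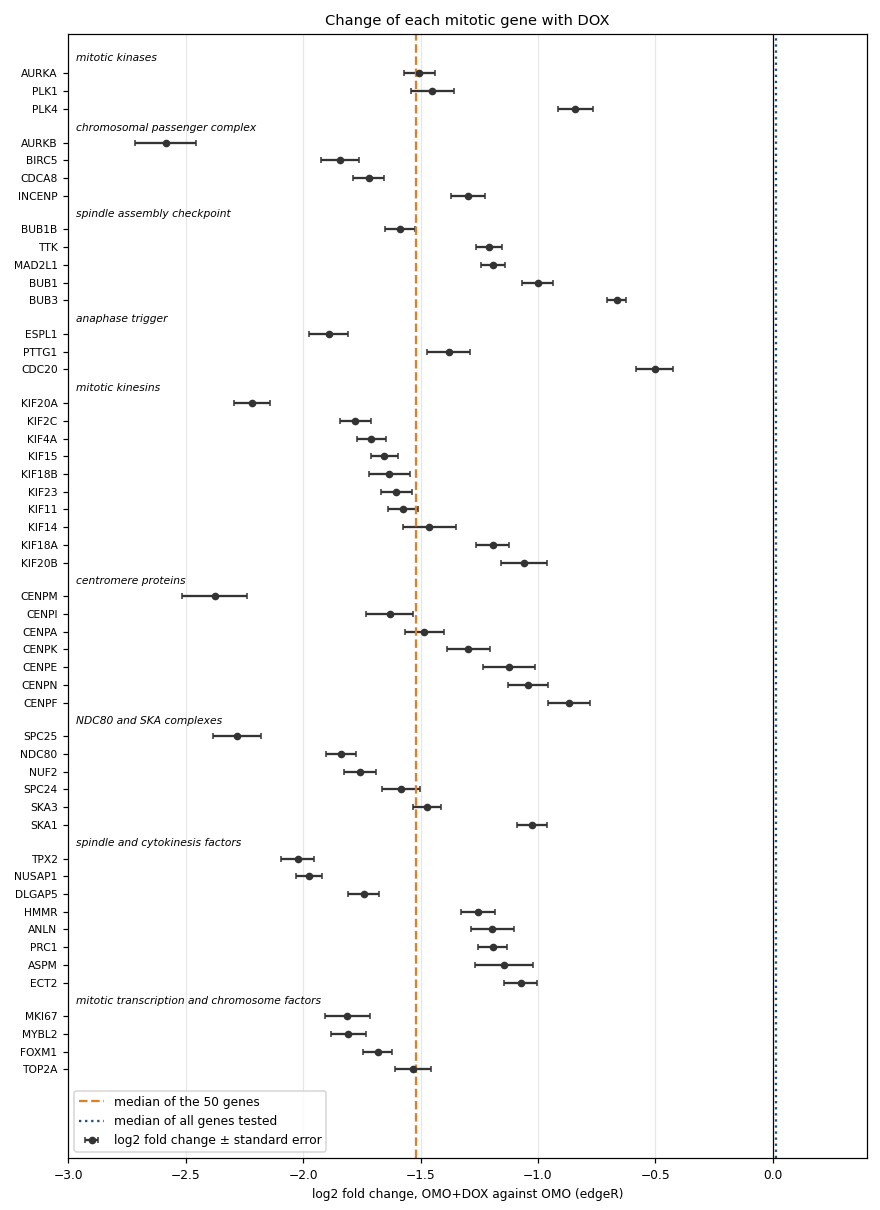
The log2 fold change of each of the 50 genes (OMO+DOX against OMO, edgeR), with its standard error as bars, grouped by role. The dashed line is the median of the 50 genes (-1.52) and the dotted line that of all genes tested (0.01), and each gene lies to the left of 0.

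Promoters of genes of mitosis are known for the cell cycle genes homology region (CHR), bound by the MuvB core of the DREAM complex, and for CCAAT boxes, bound by NF-Y, while the E-box CACGTG is the site of MYC and MAX. RefSeq promoters (GRCh38.p14, 250 bases before to 50 after the annotated start) were held for 43 of the 50 genes, and not for AURKA, BIRC5, BUB3, TTK, CENPM, TPX2 and FOXM1. A CHR, taken as TTTGAA or TTCGAA on either strand, was found in 34 of the 43 (79.1%), against 16.4% of 35116 promoters and 15.3% of those of the genes tested. CCAAT on either strand was found in 32 of the 43 (74.4%), against 34.6% and 43.4%. Both were present in 27 of the 43 (62.8%), against 8.35% of the genes tested. CACGTG was found in 5 of the 43 (11.6%), against 7.26% of promoters and 12.6% of those of the genes tested. CHR matches lay close to the start: 30 of the 43 genes (69.8%) had one starting at most 40 bases before it or after it, against 4.53% of promoters. The first share is per gene, over all its entries (4 genes have more than 1), and the second is per promoter entry. The like share of the genes tested is not given. With the bases before the start alone, 21 of the 43 (48.8%) held a CHR, against 14.3% of promoters and 13.4% of those of the genes tested. The 34 genes with a CHR had a median log2 fold change of -1.47 and the 9 without one -1.63. A match is a description of letters, not of binding, and CHR and CCAAT matches can share bases.

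A CHR started within 40 bases before the start in 17 genes, of which 8 that span kinases, checkpoint, motor and centromere roles are shown as examples with their flanks, each as 5′ to 3′ of the gene's own strand with the match in capitals (TTCAAA is TTTGAA on the other strand).
PLK1, chr16:23678848-23678877, plus strand: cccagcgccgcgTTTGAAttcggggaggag
CDCA8, chr1:37692481-37692510, plus strand: gtgactgtggagTTTGAAttgggtggcggt
BUB1B, chr15:40161034-40161063, plus strand: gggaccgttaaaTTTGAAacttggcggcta
ESPL1, chr12:53268256-53268285, plus strand: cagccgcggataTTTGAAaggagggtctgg
KIF4A, chrX:70290058-70290087, plus strand: ctccgggacggaTTTGAAacttggcggtta
KIF11, chr10:92593090-92593119, plus strand: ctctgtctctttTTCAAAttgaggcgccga
CENPA, chr2:26786026-26786055, plus strand: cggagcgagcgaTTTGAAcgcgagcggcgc
MKI67, chr10:128126435-128126464, minus strand: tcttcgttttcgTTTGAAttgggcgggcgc

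CCAAT boxes are shown for 3 of the genes with the largest changes, with the match in capitals (ATTGG is CCAAT on the other strand). AURKB and KIF20A held no CHR in these windows.
AURKB, chr17:8210362-8210390, minus strand: accagcgcccagATTGGggctagtgtgct
KIF20A, chr5:138179033-138179061, plus strand: cttccctatctgATTGGccgaacgaacgc
SPC25, chr2:168890470-168890498, minus strand: ctgcgctatcggCCAATcagaaggccagc

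The 5 E-box matches, in capitals, are shown in full because MYC and MAX bind this sequence.
PLK1, chr16:23678679-23678708, plus strand: cccaggctatccCACGTGttcgggcgtccg
CENPE, chr4:103198456-103198485, minus strand: cgcgctgctccgCACGTGgaatggcccatg
CENPF, chr1:214602990-214603019, plus strand: cattagcaaaagCACGTGgtctccgtctcc
ANLN, chr7:36389747-36389776, plus strand: gcccggcgcggcCACGTGaccgagcgcagg
MYBL2, chr20:43666864-43666888, plus strand: ggactgaCACGTGagccaggcctcg

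**Figure D3:**
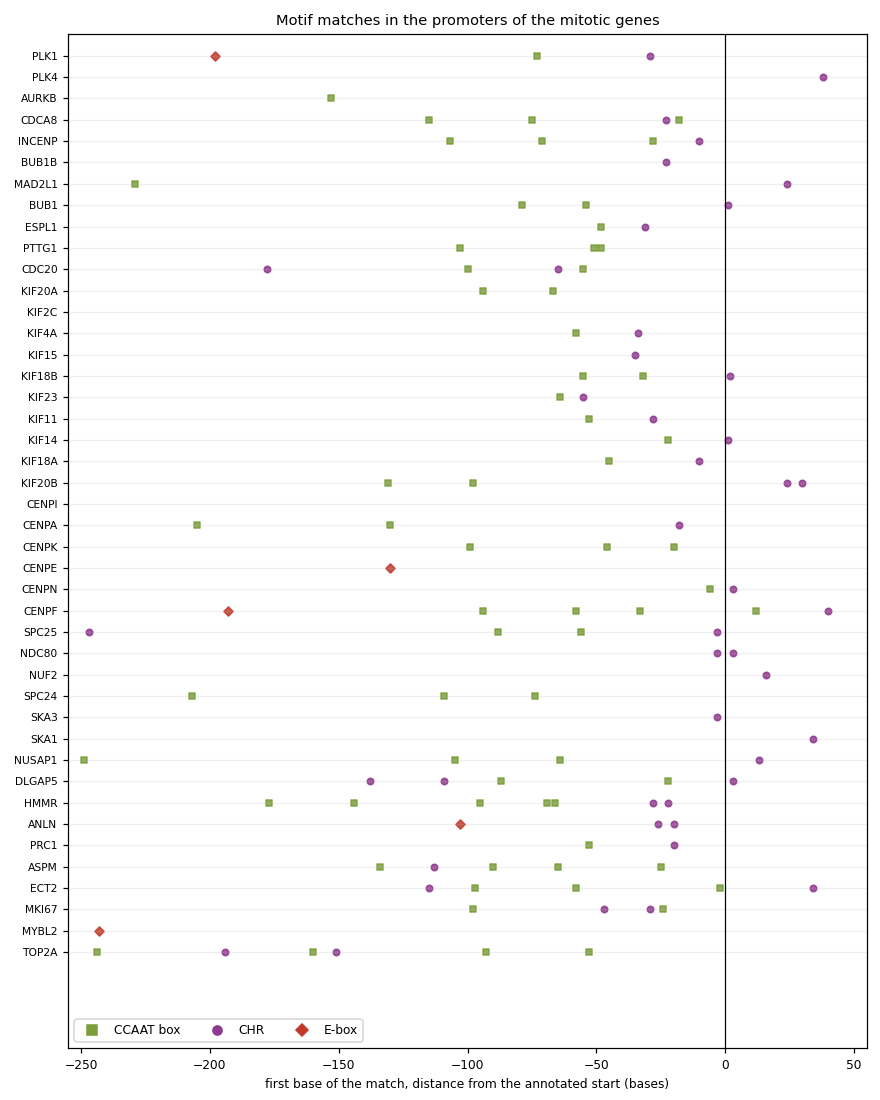
Position of each motif match in the first promoter entry of the 43 genes with a RefSeq entry, as the distance in bases of its first base from the annotated start (vertical line), with CCAAT boxes as squares, CHR as circles and E-boxes as diamonds. Matches in further entries, such as the CCAAT box of PLK4 in its entry 3, are counted in the text but not drawn. CHR matches of 30 genes start at most 40 bases before the start or after it, and 4 genes (KIF2C, CENPE, CENPI and MYBL2) hold neither CHR nor CCAAT.

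The mitotic kinases had a median log2 fold change of -1.45. AURKA, the kinase of centrosome maturation and spindle poles, stood at 58.5, 66.3, 67.9 and 63.8 CPM in OMO replicates 1 to 4 and at 24.1, 20.4, 23.7 and 21.99 CPM in OMO+DOX replicates 1 to 4. The groups lay far apart. AURKA fell by 1.51 on the log2 scale (standard error 0.07, 2.84-fold lower, edgeR adjusted p = 1.77e-09). PLK4, which starts centriole duplication, stood at 33.2, 35.3, 29.2 and 32.3 CPM in OMO and at 19.01, 19.1, 18.7 and 15.7 CPM in OMO+DOX libraries. The gap between the groups was narrower than for AURKA, and OMO+DOX replicate 4 was the lowest. With edgeR, PLK4 was 1.79-fold lower (log2 fold change -0.84, standard error 0.08, adjusted p = 9.64e-07). PLK1, which acts from mitotic entry to cytokinesis, had a log2 fold change of -1.45.

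The chromosomal passenger complex corrects faulty kinetochore attachments and moves to the midzone in anaphase. Its kinase AURKB (ENSG00000178999.13, chr17:8204733-8210600, minus strand, GENCODE 29) had the largest change of the 50 genes. AURKB stood at 31.8, 37.3, 43.02 and 36.6 CPM in OMO and at 7.75, 5.61, 6.43 and 4.87 CPM in OMO+DOX libraries. The highest OMO+DOX library remained well under the lowest OMO library. The AURKB level fell by 2.59 on the log2 scale, 6.002-fold lower (standard error 0.13, edgeR adjusted p = 5.51e-09). INCENP, the scaffold of the complex, stood at 73.6, 74.1, 66.05 and 75.4 CPM in OMO and at 32.6, 25.4, 30.3 and 29.2 CPM in OMO+DOX libraries. Among OMO libraries replicate 3 was the highest for AURKB and the lowest for INCENP, and the groups did not overlap. INCENP fell by 1.30 on the log2 scale (standard error 0.07, 2.46-fold lower, edgeR adjusted p = 1.63e-08). BIRC5 (survivin), which binds phosphorylated histone H3 at centromeres, stood at 139, 159.7, 181 and 151 CPM in OMO and at 45.5, 39.4, 46.1 and 44.7 CPM in OMO+DOX libraries. Its OMO+DOX libraries lay closer together than its OMO libraries, with no overlap. With edgeR, BIRC5 was 3.59-fold lower (log2 fold change -1.84, standard error 0.08, adjusted p = 1.90e-09). CDCA8 (borealin), the remaining subunit, had a log2 fold change of -1.72.

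The spindle assembly checkpoint genes had a median log2 fold change of -1.19. BUB1B (BubR1), a subunit of the complex that inhibits the anaphase-promoting complex, stood at 128, 144, 124 and 134 CPM in OMO and at 47.8, 42.7, 45.002 and 40.6 CPM in OMO+DOX libraries. Its 8 libraries formed clearly separate groups. The BUB1B level fell by 1.59 on the log2 scale, 3.01-fold lower (standard error 0.06, edgeR adjusted p = 8.53e-10). BUB3, the partner that brings BUB1 and BUB1B to kinetochores, stood at 157, 162, 156 and 159.7 CPM in OMO and at 99.3, 99.6, 103 and 97.5 CPM in OMO+DOX libraries. Replicates of BUB3 had the lowest coefficient of variation of the 50 genes in both groups (1.72% and 2.26%), and the groups did not overlap although the change was small. BUB3 fell by 0.67 on the log2 scale (standard error 0.04, 1.59-fold lower, edgeR adjusted p = 2.79e-08). The log2 fold changes of the kinase TTK, of MAD2L1 (Mad2) and of the kinase BUB1 were -1.21, -1.19 and -1.002.

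The genes that trigger anaphase changed unequally. ESPL1 (separase), the protease that cuts cohesin, stood at 71.1, 82.9, 74.1 and 73.04 CPM in OMO and at 23.5, 17.4, 20.1 and 20.1 CPM in OMO+DOX libraries. The groups were far apart, and OMO+DOX replicate 1 was the highest of its group. With edgeR, ESPL1 was 3.71-fold lower (log2 fold change -1.89, standard error 0.08, adjusted p = 1.79e-09). CDC20 (ENSG00000117399.14, chr1:43358955-43363203, plus strand, GENCODE 29), the activator of the anaphase-promoting complex, had the smallest change of the 50 genes. CDC20 stood at 106, 116, 134 and 117 CPM in OMO and at 87.3, 72.9, 87.5 and 86.1 CPM in OMO+DOX libraries. The highest library was OMO replicate 3 and the lowest OMO+DOX replicate 2, and the groups came close without overlap. The CDC20 level fell by 0.50 on the log2 scale, 1.42-fold lower (standard error 0.08, edgeR adjusted p = 0.00011). PTTG1 (securin), the inhibitor of separase, had a log2 fold change of -1.38.

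All 10 mitotic kinesins, the motors that move along or take apart spindle microtubules, fell by more than 1 on the log2 scale, with a median of -1.62. KIF20A (ENSG00000112984.12, chr5:138178719-138187715, plus strand), which carries the passenger complex to the midzone, stood at 98.9, 121, 110.5 and 108 CPM in OMO and at 24.9, 20.8, 24.8 and 23.6 CPM in OMO+DOX libraries. Every OMO+DOX library was far under every OMO library. KIF20A fell by 2.22 on the log2 scale (standard error 0.08, 4.65-fold lower, edgeR adjusted p = 2.04e-10). KIF20B, a kinesin of late cytokinesis, stood at 62.9, 73.6, 51.7 and 65.2 CPM in OMO and at 33.7, 30.5, 29.6 and 27.6 CPM in OMO+DOX libraries. OMO replicate 3 was the lowest of its group, still above all OMO+DOX libraries. With edgeR, KIF20B was 2.09-fold lower (log2 fold change -1.06, standard error 0.10, adjusted p = 1.16e-06). Between these were KIF2C, a microtubule depolymerase (-1.78), KIF4A, a chromosome and midzone motor (-1.71), KIF15 (-1.65) and KIF11 (-1.58), which keep the spindle bipolar, and KIF18B (-1.63) and KIF18A (-1.19), which limit microtubule growth. The log2 fold changes of KIF23 and KIF14, both needed for cytokinesis, were -1.60 and -1.46.

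The centromere proteins spanned a wide range of changes. CENPM (ENSG00000100162.15, chr22:41938721-41947164, minus strand), a subunit of the inner kinetochore network, stood at 11.2, 13.1, 14.05 and 12.01 CPM in OMO and at 2.62, 1.69, 2.37 and 2.95 CPM in OMO+DOX libraries. The groups did not overlap, and its OMO+DOX libraries had the highest coefficient of variation of the 50 genes (22.1%). The CENPM level fell by 2.38 on the log2 scale, 5.19-fold lower (standard error 0.14, edgeR adjusted p = 1.88e-08). CENPF, a large protein of the outer kinetochore, stood at 494, 585, 443 and 545 CPM in OMO and at 318, 272, 288 and 257 CPM in OMO+DOX libraries. OMO replicate 3 was the lowest of its group and OMO+DOX replicate 1 the highest of its own, and the groups stayed apart. CENPF fell by 0.87 on the log2 scale (standard error 0.09, 1.82-fold lower, edgeR adjusted p = 2.94e-06). CENPA, the histone H3 variant that marks centromeres, had a log2 fold change of -1.48, and CENPE, a kinetochore kinesin, of -1.12. The other inner kinetochore subunits CENPI, CENPK and CENPN had log2 fold changes of -1.63, -1.30 and -1.04.

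The NDC80 and SKA complexes hold microtubules at the outer kinetochore. SPC25 (ENSG00000152253.9, chr2:168834132-168913371, minus strand), a subunit of the NDC80 complex, stood at 14.3, 16.99, 15.3 and 13.9 CPM in OMO and at 3.37, 2.64, 3.499 and 2.84 CPM in OMO+DOX libraries. The lowest OMO library was well above the highest OMO+DOX library. With edgeR, SPC25 was 4.87-fold lower (log2 fold change -2.28, standard error 0.10, adjusted p = 2.03e-09). NDC80 itself, which binds the microtubule with NUF2, stood at 44.4, 50.99, 49.7 and 47.9 CPM in OMO and at 13.9, 12.9, 14.5 and 12.6 CPM in OMO+DOX libraries. Replicates agreed closely within both groups. The NDC80 level fell by 1.84 on the log2 scale, 3.58-fold lower (standard error 0.06, edgeR adjusted p = 1.97e-10). SKA1, the microtubule-binding subunit of the SKA complex, stood at 17.3, 17.3, 17.1 and 15.98 CPM in OMO and at 8.85, 7.82, 8.74 and 7.84 CPM in OMO+DOX libraries. OMO replicate 4 was the lowest of an otherwise tight group, with no overlap. SKA1 fell by 1.02 on the log2 scale (standard error 0.06, 2.03-fold lower, edgeR adjusted p = 3.47e-08). NUF2, SPC24 and SKA3 had log2 fold changes of -1.76, -1.58 and -1.47.

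Among spindle and cytokinesis factors, TPX2 (ENSG00000088325.16, chr20:31739271-31801805, plus strand), which activates AURKA and starts microtubule assembly near chromosomes, stood at 324, 381, 379.7 and 355 CPM in OMO and at 96.3, 80.2, 90.6 and 86.96 CPM in OMO+DOX libraries. The groups lay far apart. With edgeR, TPX2 was 4.06-fold lower (log2 fold change -2.02, standard error 0.07, adjusted p = 2.41e-10). NUSAP1, which bundles spindle microtubules, stood at 228, 262, 253 and 243 CPM in OMO and at 66.6, 60.98, 63.2 and 59.99 CPM in OMO+DOX libraries. Its replicates were close together, and it had the smallest adjusted p of the 50 genes. The NUSAP1 level fell by 1.97 on the log2 scale, 3.93-fold lower (standard error 0.06, edgeR adjusted p = 4.70e-11). ECT2, the exchange factor that activates RhoA for cytokinesis, stood at 99.4, 109.7, 89.7 and 104 CPM in OMO and at 51.3, 46.5, 49.6 and 43.9 CPM in OMO+DOX libraries. OMO replicate 3 was the lowest of its group, well above the OMO+DOX libraries. ECT2 fell by 1.07 on the log2 scale (standard error 0.07, 2.104-fold lower, edgeR adjusted p = 5.22e-08). DLGAP5 (HURP), which stabilises kinetochore fibres, had a log2 fold change of -1.74, and HMMR, a spindle protein, of -1.26. ANLN, a scaffold of the contractile ring, PRC1, which bundles midzone microtubules, and ASPM, a spindle pole protein, had log2 fold changes of -1.19, -1.19 and -1.14.

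The transcription and chromosome factors had log2 fold changes from -1.81 to -1.53. MKI67, whose product Ki-67 coats mitotic chromosomes and is the routine stain for proliferating cells, stood at 509.8, 549, 414 and 536 CPM in OMO and at 164, 129.9, 143 and 135 CPM in OMO+DOX libraries. Its OMO libraries spread, replicate 3 being the lowest, and no OMO+DOX library came near it. With edgeR, MKI67 was 3.51-fold lower (log2 fold change -1.81, standard error 0.10, adjusted p = 8.96e-09). TOP2A, the topoisomerase that untangles sister chromatids, stood at 945, 1066, 853 and 999 CPM in OMO and at 365, 323, 345 and 304 CPM in OMO+DOX libraries. OMO replicate 3 was the lowest of its group, and the groups were well separated. The TOP2A level fell by 1.53 on the log2 scale, 2.89-fold lower (standard error 0.08, edgeR adjusted p = 5.05e-09). FOXM1 and MYBL2, transcription factors of late cell cycle genes, had log2 fold changes of -1.68 and -1.81.

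Partners within complexes did not all change to the same degree. The log2 ratio of the counts of both partners, which does not depend on library scaling, was compared for 13 pairs, some of which share a gene. The ratio does not remove differences between libraries that go with transcript length. Partners can differ in length, as AURKB (1254 bases) and INCENP (3964 bases) do, and the part this has in the ratios was not tested. Of the 13, 11 differed between OMO+DOX and OMO libraries (exact permutation test over libraries, two-sided, p = 0.0286, which is the lowest value possible with 4 against 4, Benjamini-Hochberg adjusted p = 0.0338 over the 13). The pairs were chosen with earlier results known, and no share over other gene pairs was computed. Single genes already separated the groups fully in 35.4% (lower) and 36.3% (higher) of those tested. The count of 11 is therefore not read as particular to partners. AURKB counts were 0.432, 0.503, 0.651 and 0.485 of INCENP counts in OMO replicates 1 to 4 and 0.238, 0.221, 0.212 and 0.167 of them in OMO+DOX replicates 1 to 4. The ratio was lower in all OMO+DOX libraries, with a difference of -1.30 on the log2 scale (SD 0.25 in OMO and 0.22 in OMO+DOX, n = 4 each, exact permutation p = 0.0286). Relative to INCENP, BIRC5 and CDCA8 fell as well, with differences of -0.54 and -0.43. BUB1B counts were 0.818, 0.891, 0.796 and 0.841 of BUB3 counts in OMO and 0.482, 0.429, 0.437 and 0.417 of them in OMO+DOX replicates, with no overlap. That difference was -0.92 (SD 0.07 and 0.09), and the difference of MAD2L1 to BUB3 was -0.53. TPX2 counts were 5.54, 5.75, 5.59 and 5.56 times those of AURKA in OMO and 3.99, 3.94, 3.82 and 3.95 times in OMO+DOX replicates, the pair with the least spread within groups. The TPX2 to AURKA difference was -0.51 (SD 0.02 and 0.03).

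Other pairs moved the opposite way, in that the gene named first fell less than its partner. PTTG1 counts were 0.781, 0.791, 1.02 and 0.855 of ESPL1 counts in OMO and 1.11, 1.32, 1.35 and 1.17 of them in OMO+DOX replicates. Every OMO+DOX value of securin to separase was above every OMO value, with a difference of 0.52 (SD 0.18 and 0.13). PRC1 rose relative to KIF4A, its motor partner in the midzone, by 0.52, and SPC24 relative to NDC80 by 0.26. Counts of PRC1 can include reads of AC068831.7, which shares 3181 exon bases with it on the same strand, and the part this has in its ratio was not tested. SPC25 fell relative to NDC80 (-0.46) and SKA3 relative to SKA1 (-0.45). The NUF2 to NDC80 ratio did not pass, with a difference of 0.08 (SD 0.03 and 0.10, exact permutation p = 0.200), nor did CDC20 to BUB3, with a difference of 0.16 (SD 0.15 and 0.13, exact permutation p = 0.114, adjusted p = 0.124). Without OMO replicate 3, the difference of AURKB to INCENP was -1.19, that of BIRC5 to INCENP -0.42 and that of PTTG1 to ESPL1 0.61.

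**Figure D4:**
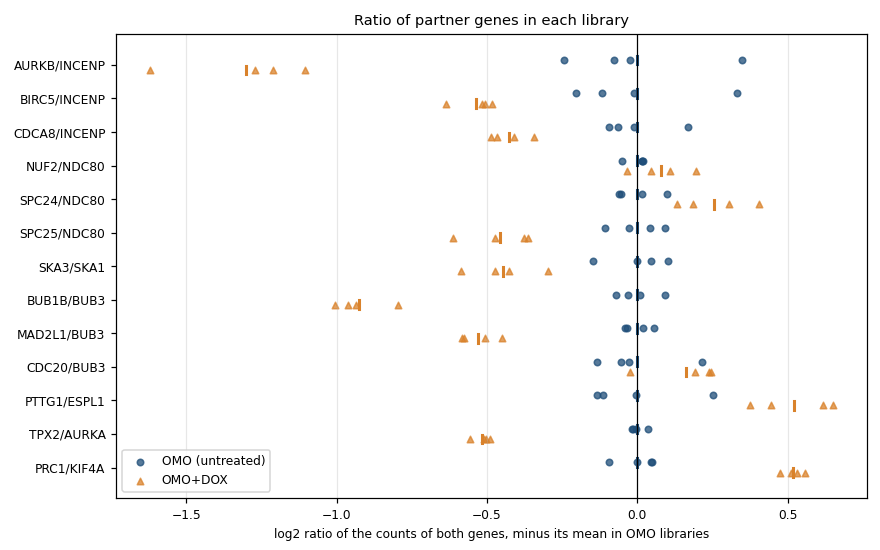
The log2 ratio of the counts of 13 partner pairs in each library, as the difference from the pair's mean over OMO libraries, with OMO as circles, OMO+DOX as triangles and group means as vertical bars. In 11 pairs the 4 triangles lie on 1 side of all circles, and those of NUF2/NDC80 and CDC20/BUB3 overlap the circles.

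Levels of different genes were compared per kilobase of coding transcript (the longest of GENCODE 29, 1002 to 12678 bases, median 3528). TOP2A had the highest level per length in OMO cells, 168 CPM per kilobase, followed by NUSAP1 (102) and TPX2 (99.8). In OMO+DOX cells TOP2A remained first on that scale with 58.0 CPM per kilobase, and CDC20 (47.0) stood ahead of CENPF (27.5) and NUSAP1 (26.0). CENPI had the lowest level per length in both groups, 3.09 and 0.995 CPM per kilobase.

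OMO replicate 3 stood apart in how the 50 genes deviated from the mean of their group. Its deviation fell with coding transcript length (Spearman -0.75 over the 50 genes, which share the library). It was above the group mean in 21 of the 25 shorter genes and in 4 of the 25 longer ones. Over 12867 genes tested with a length, the same coefficient was -0.68. Since deviations are taken from a mean that includes all 4 libraries, those of the other OMO libraries (coefficients of 0.49 to 0.66 for the 50 genes) are not independent of it. In OMO+DOX libraries it was 0.37, 0.43, -0.44 and -0.36 for the 50 genes. Without OMO replicate 3, all 50 genes were still called lower and their median log2 fold change was -1.57.

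**Figure D5:**
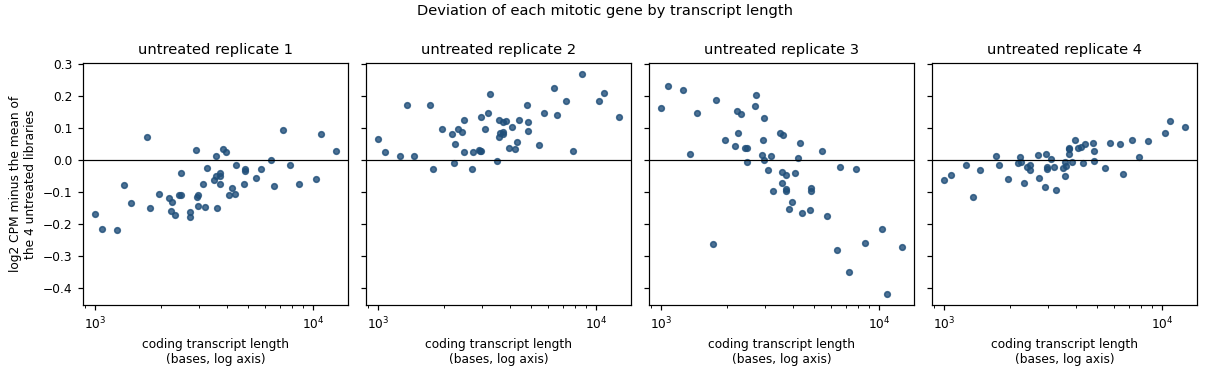
Deviation of each of the 50 genes from the mean of the 4 OMO libraries (log2 CPM) against coding transcript length in bases (log axis), in 1 panel for each OMO (untreated) library. Points of replicate 3 fall with length, within a range of 0.23 to -0.42, and the panels are not independent, since the mean includes all 4 libraries.

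Related genes of cell division were looked at as lists that hold none of the 50. Of 160 such genes, all tested, 137 were lower, 11 higher and 12 not called, with a median log2 fold change of -0.89. Over all genes tested, 38.1% were lower and 38.5% higher, and the counts of each list stand beside those shares and a median of 0.01. Mitotic entry regulators were lower in 12 of 12 (median -1.38), with the largest changes in PKMYT1, an inhibitory kinase of CDK1 (-2.28), and CDC25C, the phosphatase that opposes it (-1.84). Replication licensing and fork genes were lower in 25 of 26 (median -1.57), led by CDT1, which loads the replicative helicase (-2.64), and GINS2, a subunit of that helicase (-2.21). Condensin and cohesin genes were lower in 19 of 22 and higher in 2 (median -0.93), with NCAPG of condensin (-1.88) and CDCA5, the cohesin protector sororin (-1.85), changing most.

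Other kinetochore and centromere genes were lower in 28 of 30 (median -0.72), most in CENPU (-1.92) and HJURP, the chaperone of CENPA (-1.70). The exceptions, named after their values were seen, were CENPT, which was higher (log2 fold change 1.39, 24.9 to 65.2 CPM), and MIS12, which did not pass (0.02, edgeR adjusted p = 0.694). Other spindle, centrosome and cytokinesis genes were lower in 27 of 30 and higher in 1 (median -0.97), most in the kinesins KIFC1 (-1.77) and KIF22 (-1.71), and the 1 higher gene was CEP152, a centriole protein (1.66). Genes of the anaphase-promoting complex, the ubiquitin ligase that CDC20 activates, and its cofactors were lower in 12 of 18 and higher in 2 (median -0.20). With scaling by library size only these counts were 7 and 5 of 18, where 4715 of the 15222 genes tested were lower and 7157 higher. The largest changes there were those of ANAPC1 (1.74) and of the ubiquitin-conjugating enzyme UBE2C (-1.59), and ANAPC1 is uncertain because it has near-identical pseudogenes, of which ANAPC1P1 stood at 0.133 CPM in OMO and 12.2 CPM in OMO+DOX cells.

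Subunits of the DREAM and MuvB complexes, which bind CHR promoters, were lower in 7 of 11 and higher in 2, with a median of -0.28 (all genes tested: 38.1% lower, 38.5% higher, median 0.01) and the largest changes in RBL1 (-0.56) and TFDP1 (-0.47). Tubulins, the building blocks of spindle microtubules, were lower in 7 of 11 and higher in 3 (median -0.89). TUBA1C (-2.22) and TUBB4B (-1.53) changed most, and the higher ones, named after their values were seen, were TUBB4A (1.14), TUBB3 (0.73) and TUBB2B (0.49). Of the MYC-dependent genes CAD and NCL, both were lower (-0.48 and -0.44).

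Some counts of the 50 genes can include reads of other genes. Exon bases are shared with another gene in GENCODE 29 by 17 of the 50. The study's methods name a stranded library kit, but whether counting used strand is not given in the sources used here. If it did, overlaps on the opposite strand matter less than those on the same strand. PRC1 shares 3181 bases on its own strand with AC068831.7, a readthrough entry at 16.6 CPM against 87.7 CPM for PRC1 over all 8 libraries, and FOXM1 shares 781 bases with ITFG2 on the opposite strand, at 26.5 CPM against 84.999 CPM. The overlapping gene was higher for KIF20A, which shares 132 bases on the opposite strand with BRD8 (104.5 CPM against 66.6 CPM for KIF20A). It was also higher for CENPA, which shares 138 bases on its own strand with SLC35F6 (46.7 CPM against 12.2 CPM for CENPA), and for CENPN, which shares 457 bases on the opposite strand with CMC2 (6.32 CPM against 6.21 CPM). For 36 genes the expected counts, deposited with up to 2 decimals, were whole as written in all libraries, and for 14 they were fractional in at least 1, among them AURKA, CENPN, PRC1, NUSAP1 and FOXM1 in all 8. Copies stood low: the pseudogene CDC20P1 had 3.48 CPM in OMO and 2.31 CPM in OMO+DOX cells, AURKAP1 1.15 and 0.731 CPM, and the KIF4A paralogue KIF4B 0.0705 and 0.00982 CPM.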

How the data were processed

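PolyA+ RNA-Seq libraries of 4 OMO and 4 OMO+DOX replicates of D283-OMO cells were analysed, with groups taken from the sample labels. The study's methods call the replicates biologically independent. Per the study's methods, the authors used Trim Galore for trimming, STAR for alignment to GRCh38 with the annotation of GENCODE 32, and RSEM for counting, and deposited expected counts per gene, which are not normalized. RSEM divides reads that match several genes, so counts of copied or overlapping genes are estimates.

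Expected counts were rounded, and those above 1 CPM in 4 or more of the 8 libraries were tested with edgeR 4.0.16 in R 4.3.3 (TMM scaling, quasi-likelihood test, Benjamini-Hochberg adjustment over 15222 genes, no covariates). Genes were called at an adjusted p below 0.05. CPM are TMM-scaled, and 3 counts correspond to at most 0.0748 CPM, a floor for counting error only. Depth per library was 38390696 to 54020506 counts. Partner ratios were compared by two-sided exact permutation tests over libraries. Symbols, coordinates and lengths come from GENCODE 29, and promoters from the RefSeq table of GRCh38.p14. In 36 of 43 promoters the bases after the start lay in a GENCODE 29 transcript of the gene. Other steps used Python 3.11.15 with pandas 2.3.3, numpy 2.4.6, scipy 1.17.1 and matplotlib 3.10.9.

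The result of 1 marker list is not reported here. The 50 genes, the related lists, the pairs and the tests were chosen with earlier results of these data known. Values in every library are given for the genes of largest and smallest absolute log2 fold change in each role and for the 10 largest among the 50, and of each related list the 2 largest changes are named. Alternatives were other scalings, DESeq2 1.42.0, edgeR's likelihood ratio test, other filters, unrounded counts, a stricter adjusted p, the replicate number as a block and each library left out. On simulated data with these 15222 genes, the test recovered 90.5% of 200 planted changes (70% of those of 0.5 on the log2 scale) with 11 false calls. Far fewer genes changed there than in the real data, where 38.1% were called lower and 38.5% higher. The simulation therefore does not measure scaling error or false calls when most genes change.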

Additional observations from a re-analysis of the deposited data

Results flagged for a closer look

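Among 126 groups of 4 values (each of the 50 genes and 13 pair ratios in OMO and in OMO+DOX), 5 held a value far from the other 3, where chance gives 6.3, and none of the 5 was OMO replicate 3. PLK4, the centriole kinase, stood at 15.7 CPM in OMO+DOX replicate 4 against 18.7 to 19.1 CPM in the others. CDC20, the activator of the anaphase-promoting complex, stood at 72.9 CPM in OMO+DOX replicate 2 against 86.1 to 87.5 CPM. CENPI, of the inner kinetochore, stood at 3.73 CPM in OMO+DOX replicate 1 against 3.04 to 3.13 CPM. SKA1 stood at 15.98 CPM in OMO replicate 4 against 17.1 to 17.3 CPM. The log2 ratio of NUF2 to NDC80 was -0.11 in OMO replicate 4 against -0.05 to -0.04 in the other OMO libraries. What sets these values apart was not tested.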

How the results depend on the processing

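All 50 genes stayed lower and 0 became higher under each of 17 other fits and at an adjusted p below 0.01, and the log2 fold change of a single gene moved by at most 0.15. Scaling by library size only moved the median of the 50 genes from -1.52 to -1.39 and that of all genes from 0.01 to 0.14, by its construction. Leaving out each library in turn gave a median between -1.57 and -1.46, 50 lower genes, 0 higher genes, between 4 and 6 genes past the thresholds of the study and between 131 and 138 lower genes in the related lists. Counting only bases before the start moved the share of promoters with a CHR from 79.1% to 48.8% (all promoters: 16.4% to 14.3%). The labels do not say that a replicate number marks a shared culture or batch. After removal of group means, same-numbered libraries correlated by 0.16, 0.14, 0.24 and -0.18, so not every pair exceeded 0.1, and the numbers were not used to pair samples. With the replicate block, 50 genes were lower, 5 passed the thresholds and the median was -1.52. Adding 0.5 counts to each partner left 11 of 13 ratios called. With a library left out, ratios cannot pass (smallest exact permutation p 0.0571), and differences of the 13 pairs kept their sign. Lower genes in the related lists numbered 126 with library size only. Depth does not limit these genes, whose lowest count was 68.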

Other observations

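Properties of the 50 genes that belong to no comparison are given as values. Across the genes, which share the libraries, the log2 fold change had a Spearman coefficient of 0.34 with coding transcript length (0.31 without OMO replicate 3, n = 50). Among the 50, longer genes thus tended to fall less. The like coefficient over all genes tested is not given. The part that length-related differences between libraries have in it was not tested. With the mean level in OMO cells the coefficient over the 50 genes was -0.09. The 5 genes with an E-box had a median log2 fold change of -1.19 and the 38 with a RefSeq promoter and no E-box -1.55, and genes with a CCAAT box had -1.46 (n = 32) against -1.63 (n = 11) without one. The 50 genes lie on 20 chromosomes.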
